A study of Arabidopsis thaliana with 6 samples.

Results

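A group of 10 genes of nitrate transport and reduction was followed in siliques of Arabidopsis thaliana, the fruits that hold the developing seeds. They were picked by locus out of the 27779 gene rows of the deposited table, and all 10 were found there. The members were the transporter genes NRT1.1 (AT1G12110), NRT1.5 (AT1G32450), NRT1.6 (AT1G27080), NRT1.7 (AT1G69870), NRT2.1 (AT1G08090), NRT2.5 (AT1G12940) and NRT2.7 (AT5G14570), the nitrate reductase genes NIA1 (AT1G77760) and NIA2 (AT1G37130), and the nitrite reductase gene NIR1 (AT2G15620). RNA-seq libraries had been made from whole siliques taken 3 days after pollination, 3 of them WT and 3 of the genotype agc1-4, a mutant of the protein kinase gene AGC1-4. The headers of the value columns read Col for WT and sr for agc1-4, and they state no background strain for agc1-4. The labels gave no treatment, nitrate supply or plant age, no description of the agc1-4 lesion, and no number of plants or mutant lines behind a library. Nothing says that libraries came from separate plants, so the p-values only measure how these libraries vary, and that variation can be technical.

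Plants take up nitrate and move it between organs with proton-coupled transporters of the NRT1 (also NPF) and NRT2 families. In the cytosol nitrate reductase turns nitrate into nitrite, which nitrite reductase turns into ammonium in plastids, with electrons from ferredoxin. Ammonium then enters glutamine and glutamate. In Arabidopsis fruits NRT1.6 is known for supplying nitrate to the young embryo through the silique and funiculus vasculature, and NRT2.7 for loading nitrate into the vacuoles of seeds.

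Total counts ranged from 7973366 to 11812934 per library, and 18828 genes had enough counts to be tested. In a principal component analysis of log2 CPM, counts on a scale of equal library sizes, the genotypes lay apart on PC1, with 49.0% of the variance. On PC2, with 14.7%, WT replicate 3 scored -25.27 while the remaining libraries scored -4.08 to 12.88. Without WT replicate 3, all 5 calls among the nitrate genes given below were still made. The mutated gene, taken as AT5G40030 from background knowledge, was lower in every agc1-4 library (0.0900, 0.390 and 0.0700 FPKM) than in every WT library (0.630, 1.78 and 1.01 FPKM). FPKM values are fragment numbers per unit of gene length and of library depth. An exact two-sided permutation test on these values gave p = 0.1, the smallest that 3 libraries against 3 can give. Fruit and ovule identity genes were strongly expressed in every library, with a summed level of 648 to 687 FPKM in WT and 688 to 721 FPKM in agc1-4 over FUL, SHP1, SHP2 and STK. FUL of that list was called lower (log2 fold change -0.24 ± 0.08, edgeR adjusted p = 0.0411), but DESeq2 and limma on log2(FPKM + 1) called 0 of the 4. SHP1, SHP2 and STK had positive log2 fold changes (0.16, 0.06 and 0.10) and were not called (edgeR adjusted p = 0.0543, 0.623 and 0.207). Of 4 root genes, the root hair genes RHD6 and COBL9 had 0 counts throughout, while SCR and SHR, which also act in shoots, were present (summed level 13.7 to 14.1 FPKM in WT and 11.7 to 12.2 FPKM in agc1-4). The summed level of the seed coat genes TT8, BAN and TT12 was 505 to 691 FPKM in WT and 587 to 661 FPKM in agc1-4. Of these TT8 rose (log2 fold change 0.27 ± 0.06, edgeR adjusted p = 0.00262), while BAN and TT12 were not called (0.11 and -0.19). The summed pollen level over VGD1, VGDH1, PRK2 and HAP2 was 80.7 to 106 FPKM in WT and 103 to 120 FPKM in agc1-4. PRK2 rose (0.50 ± 0.12, edgeR adjusted p = 0.00431), VGD1 and VGDH1 were not called (0.38 and 0.24, edgeR adjusted p = 0.0777 and 0.0698), and HAP2 had too few counts to be tested. All 3 tested pollen genes were higher at an unadjusted p under 0.05, against 2429 of all 18828 genes tested. Limma on log2(FPKM + 1) called 2 of them higher, against 1035 of the 18565 genes it tested.

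Endosperm and embryo genes summed to 17.5 to 18.9 FPKM in WT and 25.8 to 28.0 FPKM in agc1-4. LEC1 rose from 2.11 ± 0.908 to 9.69 ± 0.701 FPKM and WOX8 from 0.947 ± 0.163 to 2.37 ± 0.269 FPKM (edgeR adjusted p = 1.45e-07 and 0.00838). WOX8 rested on few counts, 11, 12 and 8 over the WT libraries and 28, 28 and 23 over the agc1-4 libraries. DESeq2 called 1 of the 5 endosperm and embryo genes higher, against 788 of 23826 genes in all. The endosperm genes AGL62, FIS2 and MEA were not called, with log2 fold changes of -0.11, 0.44 and -0.36 (edgeR adjusted p = 0.615, 0.0867 and 0.172), and MEA was lower in each agc1-4 library. Petal and stamen identity genes summed to 184 to 217 FPKM in WT and 237 to 238 FPKM in agc1-4, nearly all of it AP3, which rose from 197 ± 17.0 to 233 ± 1.25 FPKM (edgeR adjusted p = 0.00396). AP1 and PI of that list had negative log2 fold changes and were not called (-0.47 and -0.86, edgeR adjusted p = 0.204 and 0.0823).

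In agc1-4 siliques the transcripts of NRT2.5, NRT1.7, NIA2 and NIR1 fell and that of NRT1.6 rose. A gene was called where edgeR's quasi-likelihood test gave a Benjamini-Hochberg adjusted p under 0.05 over all genes tested. Of the 9 members with enough counts, 1 was called higher and 4 were called lower (3 lower and 0 higher without WT replicate 1 or without agc1-4 replicate 3), while over all genes tested 13.6% were called, 6.55% higher and 7.07% lower. The same 5 members had FPKM values that did not overlap between the genotypes, which held for 29.5% of all genes tested. The median log2 fold change of the 9 was -0.08, against 0.00 over all genes tested. Since the genes were chosen with earlier results of these libraries known, in which NRT2.5 already stood out, these counts are a description. NRT2.5 fell by a large factor and the other 4 changes were small, between 1.19-fold and 1.43-fold. In bulk siliques, fewer cells that express a gene and less RNA per cell cannot be told apart.

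**Figure D1:**
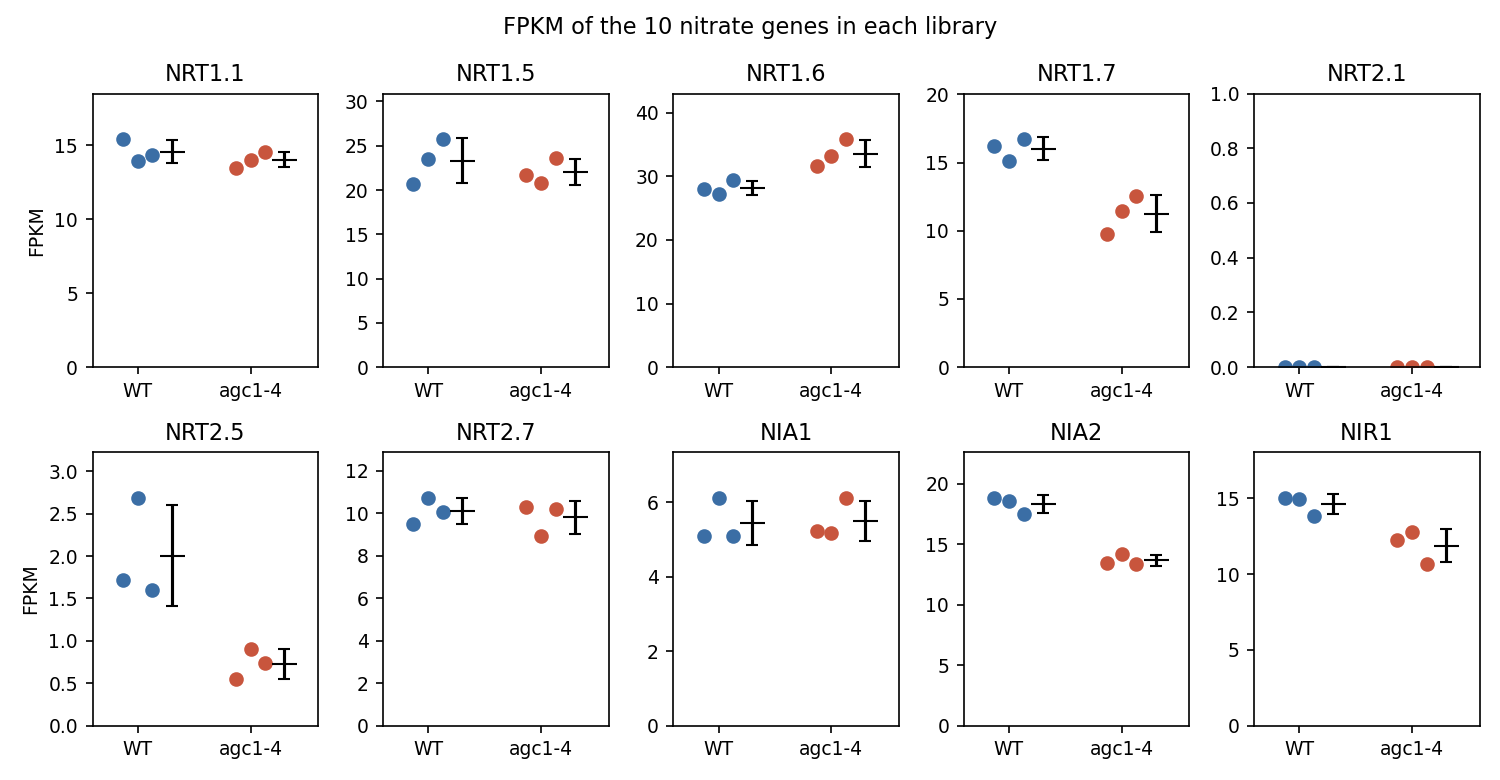
FPKM (vertical axes, each starting at 0) of each nitrate gene in the 3 WT (blue) and 3 agc1-4 (red) libraries, in replicate order from left to right, with bars for mean ± SD. The genotypes do not overlap for NRT1.6, NRT1.7, NRT2.5, NIA2 and NIR1, and NRT2.1 is at 0 in all 6 libraries.

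The members differed widely in level. In WT, NRT1.6 was the most abundant transcript (28.2 ± 1.1 FPKM, mean ± SD, n = 3), followed by NRT1.5 (23.3 ± 2.56 FPKM). Next came NIA2, NRT1.7, NIR1, NRT1.1, NRT2.7, NIA1 and NRT2.5, at mean levels of 18.3, 16, 14.6, 14.5, 10.1, 5.43 and 2.0 FPKM. In this order only NIR1 and NRT1.1 had overlapping ranges among neighbours. In agc1-4, NRT1.6 and NRT1.5 were again the most abundant, and NRT1.1 came next at 14.0 ± 0.515 FPKM. NRT1.1 and NIA2 overlapped there, as did NIR1 with NRT1.7 and NRT1.7 with NRT2.7.

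Of the NRT1 family transporters, NRT1.6 rose and NRT1.7 fell. NRT1.6 had 27.95, 27.22 and 29.41 FPKM in WT replicates 1, 2 and 3 and 31.69, 33.14 and 35.85 FPKM in agc1-4 replicates 1, 2 and 3. Every agc1-4 library thus lay above every WT library. The rise was 1.19-fold (log2 fold change 0.25 ± 0.07, SE; edgeR adjusted p = 0.0167). Over the alternatives, the NRT1.6 call was lost with the DESeq2 Wald test (adjusted p = 0.0606), with limma on log2(FPKM + 1) over all genes with any FPKM (adjusted p = 0.0674), and when WT replicate 1 or replicate 2 or 3 of agc1-4 was left out (edgeR adjusted p = 0.0503, 0.0533 and 0.106). Of the 5 endosperm and embryo markers given above, LEC1 and WOX8 were called higher by edgeR like NRT1.6, while AGL62, FIS2 and MEA were not called. Their part in the NRT1.6 difference was not tested. The reference annotation places AT1G27090 over part of NRT1.6. AT1G27090 stood above NRT1.6, at 53.5 ± 3.27 FPKM in WT and 50.8 ± 1.89 FPKM in agc1-4. It was not called (log2 fold change -0.08 ± 0.06, edgeR adjusted p = 0.489). The part of reads from the overlap in the NRT1.6 level and difference was not tested.

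NRT1.7 is known for loading nitrate into the phloem of older leaves, from where it is carried to growing organs. It had 16.22, 15.09 and 16.72 FPKM in WT and 9.79, 11.46 and 12.54 FPKM in agc1-4. The genotypes did not overlap, and NRT1.7 had 1099 counts in all over WT and 788 over agc1-4. The fall was 1.43-fold (log2 fold change -0.52 ± 0.09, edgeR adjusted p = 0.0003), and the gene was called lower in all 15 alternative fits, with log2 fold changes from -0.59 to -0.41.

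Phloem marker genes moved beside NRT1.7 in part. The sieve element gene SEOR1 fell from 12.4 ± 1.62 to 8.53 ± 1.33 FPKM (log2 fold change -0.52 ± 0.11, edgeR adjusted p = 0.00198). The companion cell sucrose carrier SUC2, the phloem regulator APL and the proton pump AHA3 had log2 fold changes of -0.21, -0.22 and -0.11 and were not called (edgeR adjusted p = 0.285, 0.309 and 0.322). The summed phloem level was 234 to 288 FPKM in WT and 220 to 250 FPKM in agc1-4, so the genotypes overlapped. The part of phloem content in the NRT1.7 difference was not tested.

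NRT1.1 and NRT1.5 showed no difference beyond the spread between libraries. NRT1.1, a transporter that also senses nitrate, had 15.41, 13.90 and 14.33 FPKM in WT and 13.49, 14.02 and 14.52 FPKM in agc1-4. Its fold change over WT was 0.963, with a 95% interval of 0.850 to 1.09 (edgeR adjusted p = 0.750). NRT1.5, which loads nitrate into root xylem, had 20.64, 23.56 and 25.75 FPKM in WT and 21.70, 20.80 and 23.66 FPKM in agc1-4. Its fold change was 0.943, with an interval of 0.839 to 1.06 (edgeR adjusted p = 0.560), so changes as large as those of NRT1.7 lie outside both intervals. AT1G32440 is annotated over part of NRT1.5, and its log2 fold change was -0.22 ± 0.10 (edgeR adjusted p = 0.140).

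The makeup of the transporter transcripts can be given as shares. Of the summed FPKM of the 7 transporter genes, NRT1.6 made up 30.6%, 29.2% and 30.1% in WT and 36.2%, 37.1% and 36.8% in agc1-4. NRT1.7 made up 17.7%, 16.2% and 17.1% in WT and 11.2%, 12.8% and 12.9% in agc1-4. The summed level of the 4 NRT1 members was 82.1 ± 3.6 FPKM in WT and 80.9 ± 5.11 FPKM in agc1-4, which differed by less than the spread between libraries. These shares follow from the levels above and were not tested separately.

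Of the NRT2 family, known mainly for uptake at low nitrate, NRT2.5 showed the largest fold change of the 9 members tested. NRT2.5 is known for its induction under long nitrogen starvation. It had 1.72, 2.69 and 1.6 FPKM in WT and 0.550, 0.900 and 0.740 FPKM in agc1-4. All agc1-4 libraries lay below all WT libraries, and WT replicate 2 was the highest of the 6. NRT2.5 rested on few counts. WT libraries had 27, 58 and 25 of them, and agc1-4 libraries 12, 16 and 11. The log2 fold change was -1.50 ± 0.32 (edgeR adjusted p = 0.00155), and the 95% interval of the fold over WT was 0.225 to 0.558. The call held in all 15 alternative fits, with a log2 fold change of -1.21 without WT replicate 2. Limma on log2(FPKM + 1) gave -0.78, since that pseudocount is of the size of the values.

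NRT3.1, the gene for the partner protein of NRT2 transporters at the plasma membrane, was too weakly expressed for the test. Its counts were 5, 10 and 4 over the WT libraries and 0, 3 and 2 over the mutant ones. Fitted without the filter on low counts it had a log2 fold change of -1.85 ± 0.84 (edgeR adjusted p = 0.148). NRT3.2, the other NRT3 gene listed, was tested and not called (log2 fold change 0.10 ± 0.13, edgeR adjusted p = 0.684). NRT2.1, the main high-affinity uptake carrier of roots, had 0 counts in all 6 libraries, which allows up to 3 counts or 0.254 to 0.376 CPM in a library, counting error only. Its close relative NRT2.2, which lies beside it in the genome, had 1 count in 1 library, and how reads shared by these near-identical copies were counted is not known, so both values are uncertain. NRT2.3 and NRT2.4 also had 0 counts, and NRT2.6 had 4 to 12 counts per library.

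NRT2.7, the seed vacuole transporter, overlapped between the genotypes. It had 9.50, 10.73 and 10.03 FPKM in WT and 10.29, 8.92 and 10.21 FPKM in agc1-4. Its fold change was 0.969, with a 95% interval of 0.828 to 1.14 (edgeR adjusted p = 0.845).

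**Figure D2:**
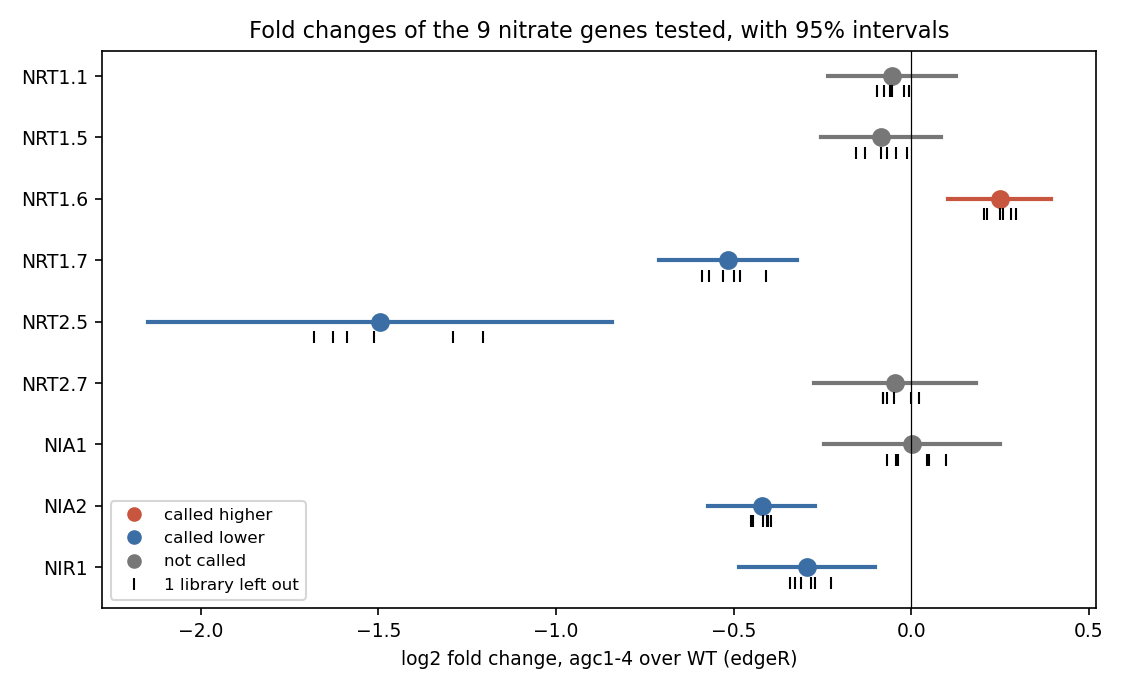
Log2 fold change, agc1-4 over WT (horizontal axis), of the 9 nitrate genes tested, with 95% intervals from edgeR as lines and the values after leaving out each library in turn as ticks below. The intervals of NRT1.6, NRT1.7, NRT2.5, NIA2 and NIR1 stay clear of 0, and those of NRT1.1, NRT1.5, NRT2.7 and NIA1 span it.

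Of the reduction genes, NIA2 and NIR1 fell while NIA1 did not pass the test. NIA2, the gene for most nitrate reductase activity in Arabidopsis, had 18.85, 18.57 and 17.47 FPKM in WT and 13.44, 14.19 and 13.38 FPKM in agc1-4. The lowest WT value stood above the highest agc1-4 value by more than the spread within either genotype. The fall was 1.34-fold (log2 fold change -0.42 ± 0.07, edgeR adjusted p = 0.000162), and it was called in all 15 alternative fits, with log2 fold changes from -0.45 to -0.40.

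NIA1, the gene for the other nitrate reductase, had 5.10, 6.11 and 5.08 FPKM in WT and 5.23, 5.16 and 6.12 FPKM in agc1-4. The genotypes overlapped fully, with a fold change of 1.0 and a 95% interval of 0.844 to 1.19 (edgeR adjusted p = 0.995). Counts of NIA1 and NIA2 were whole numbers in every library, as were those of every other member. This does not show how reads shared between genes were counted.

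The balance between the nitrate reductase genes was compared within libraries. The NIA1 to NIA2 ratio of FPKM was 0.271, 0.329 and 0.291 in WT and 0.389, 0.364 and 0.457 in agc1-4. Each agc1-4 library was above each WT library, and the mean ratio was 1.36-fold that of WT (geometric means). An exact two-sided permutation test gave p = 0.1, the smallest possible with 3 against 3, and 0.2 after adjustment over the 2 ratios tested. Such a ratio within a library does not depend on how libraries are scaled.

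NIR1, the only nitrite reductase gene of the list, had 15.04, 14.94 and 13.85 FPKM in WT and 12.24, 12.75 and 10.64 FPKM in agc1-4. The genotypes did not overlap, and the fall was 1.23-fold (log2 fold change -0.29 ± 0.09, edgeR adjusted p = 0.0334). The NIR1 call was the least stable of the 5. It was lost in DESeq2 (adjusted p = 0.142), in 3 limma fits (adjusted p = 0.0717 to 0.0966) and when replicate 1 or 2 of WT or replicate 1 or 3 of agc1-4 was left out (edgeR adjusted p = 0.112, 0.0637, 0.0801 and 0.181), with log2 fold changes from -0.34 to -0.23 over all alternatives.

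Summed over NIA1, NIA2 and NIR1, the reduction genes reached 38.99, 39.62 and 36.40 FPKM in WT and 30.91, 32.10 and 30.14 FPKM in agc1-4. The ratio of nitrate reductase (NIA1 plus NIA2) to nitrite reductase FPKM was 1.62 ± 0.0300 in WT and 1.63 ± 0.180 in agc1-4. These overlapped, and an exact two-sided permutation test gave p = 1, also after adjustment over the 2 ratios. In agc1-4 replicate 3 the ratio was 1.83, above the other 5 libraries at 1.52 to 1.65.

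**Figure D3:**
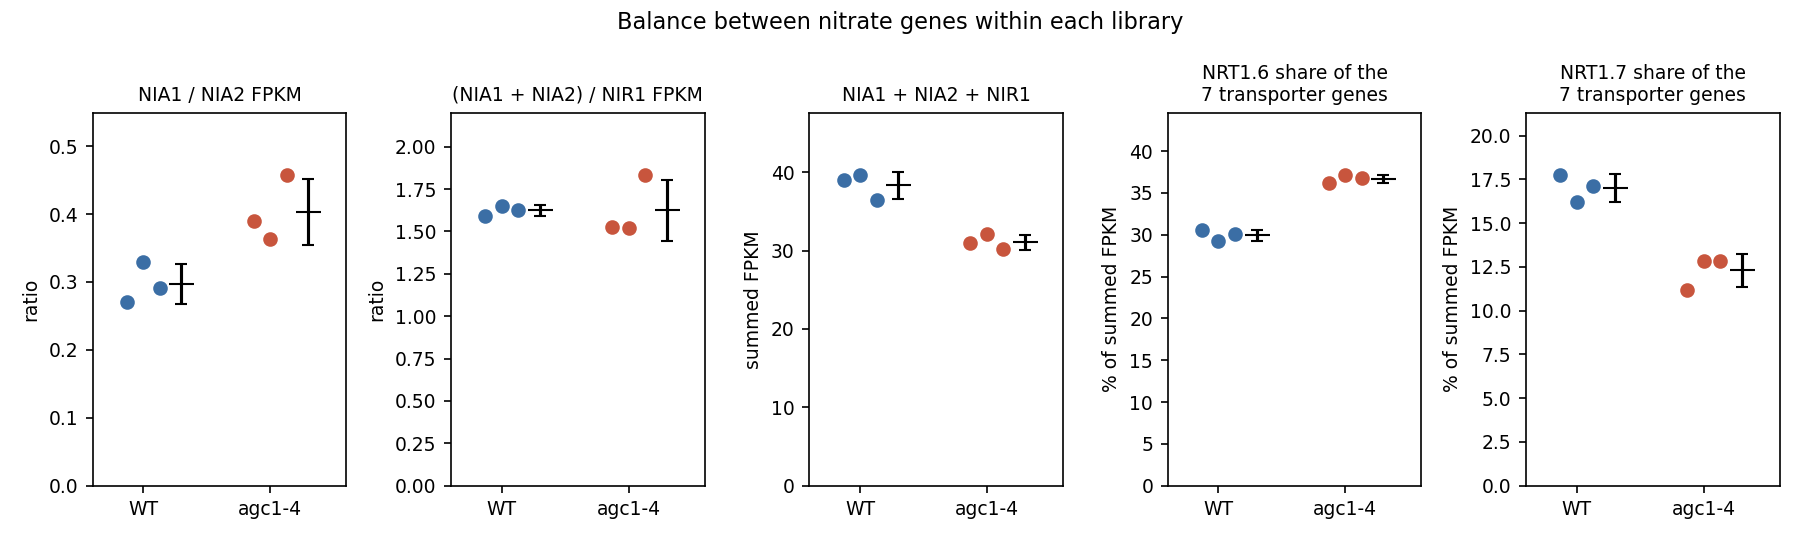
Ratios, summed FPKM and shares of summed FPKM (vertical axes, each starting at 0) within each WT (blue) and agc1-4 (red) library, with bars for mean ± SD. The NIA1 to NIA2 ratio (0.271 to 0.329 in WT, 0.364 to 0.457 in agc1-4) and the NRT1.6 share are higher, and the summed reductase level and the NRT1.7 share lower, in each agc1-4 library, while the nitrate to nitrite reductase ratio overlaps.

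Other nitrate transporters and anion channels were described from a list of 20 genes, of which 12 had enough counts. In edgeR 3 of them fell and 1 rose, against 13.6% called over all genes tested, and the median log2 fold change was -0.26 against 0.00. NRT1.11 and NRT1.12, which pass nitrate from xylem to phloem in leaf veins, were the most abundant genes of the list. NRT1.11 fell from 92.6 ± 5.08 to 67.9 ± 3.80 FPKM (log2 fold change -0.45 ± 0.06, edgeR adjusted p = 3.7e-06), and NRT1.12 from 58.8 ± 1.61 to 45.7 ± 0.526 FPKM (edgeR adjusted p = 7.08e-05). Both were called in all 15 alternative fits. CLCA, the exchanger that stores nitrate in vacuoles, fell from 4.86 ± 0.263 to 3.56 ± 0.140 FPKM (edgeR adjusted p = 0.0197). SLAH1, an anion channel subunit gene, rose from 5.07 ± 0.748 to 7.35 ± 1.21 FPKM (edgeR adjusted p = 0.0211). CLCA and SLAH1 lost their calls in DESeq2 (adjusted p = 0.0998 and 0.109) and when agc1-4 replicate 1 or 2 was left out, which left 2 called genes in the list.

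All 13 genes listed for the supply of cofactors and electrons to nitrate and nitrite reductase were tested. In edgeR 2 rose and 0 fell (0 fell also at an unadjusted p under 0.05, in DESeq2 and in limma). This count is near the 13.6% called over all genes tested, and the median log2 fold change was 0.07 against 0.00. Ferredoxin FD3 of non-green plastids, an electron donor of nitrite reductase, rose from 39.7 ± 5.71 to 54.6 ± 3.74 FPKM (log2 fold change 0.47 ± 0.09, edgeR adjusted p = 0.000609). RFNR1, the reductase that charges such ferredoxin, rose 1.23-fold (edgeR adjusted p = 0.00732), but was not called without agc1-4 replicate 3 (adjusted p = 0.0519). None of the 6 CNX genes of molybdenum cofactor synthesis was called in edgeR, DESeq2 or limma or had an unadjusted p under 0.05. Over all genes, DESeq2 called 1596 of 23826 and limma on log2(FPKM + 1) 1910 of 18565. At an unadjusted p under 0.05, 2429 of 18828 were higher and 2520 lower. With only 6 genes, a count of 0 is therefore no result about the CNX genes.

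Downstream of NIR1, 4 of 18 tested genes of ammonium uptake and assimilation fell and 1 rose, against 7.07% lower and 6.55% higher over all genes tested (median log2 fold change -0.07 against 0.00). GLN2, the plastid glutamine synthetase, fell from 229 ± 11.9 to 183 ± 1.09 FPKM (log2 fold change -0.34 ± 0.05, edgeR adjusted p = 3.98e-05). GLU1, the ferredoxin-dependent glutamate synthase of green tissue, fell from 87.8 ± 2.5 to 71.7 ± 2.24 FPKM (edgeR adjusted p = 0.000216). The other glutamate synthase genes, GLU2 and GLT1, were not called (edgeR adjusted p = 0.828 and 0.821). ASN1, an asparagine synthetase gene repressed by light and sugar, fell 2.16-fold, from 3.89 ± 0.431 to 1.81 ± 0.328 FPKM (edgeR adjusted p = 0.000101). GLN1;2, a cytosolic glutamine synthetase gene, fell 1.14-fold (edgeR adjusted p = 0.0232), and GDH1 for glutamate dehydrogenase rose 1.19-fold (edgeR adjusted p = 0.0493). The GDH1 call was lost in 10 of 15 alternative fits, the fit with the replicate number as a block among them (adjusted p = 0.0631), and that of GLN1;2 in 7. Leaving out WT replicate 1 or replicate 2 or 3 of agc1-4 left 3 called genes in the list, all lower.

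Of 21 tested activators of nitrate signalling 3 fell and 1 rose, against 13.6% called over all genes tested (median log2 fold change -0.11 against 0.00). CPK32, a calcium-dependent kinase that acts on the nitrate regulator NLP7, fell from 24.1 ± 1.77 to 17.6 ± 1.45 FPKM (log2 fold change -0.46 ± 0.08, edgeR adjusted p = 0.000142). CPK10, a related kinase, and CIPK8, a kinase of the response to high nitrate, fell 1.23-fold and 1.28-fold (edgeR adjusted p = 0.0487 and 0.0155). The CPK10 call was lost in 10 of 15 alternative fits and that of CIPK8 in 6. The calcium sensor gene CBL9, whose product activates the NRT1.1 kinase CIPK23, rose 1.27-fold (edgeR adjusted p = 0.0199), a call lost in 3 of 15 alternative fits. CIPK23 itself, its other sensor CBL1 and the kinase CPK30 were not called (log2 fold changes -0.01, -0.10 and -0.27). In DESeq2 CPK32 alone of these was called, and leaving out replicate 1 or 3 of WT or replicate 2 or 3 of agc1-4 left 2 called genes in the list. Of the 8 tested NLP genes, which encode the main transcriptional activators of nitrate responses, 0 were called by edgeR, DESeq2 or limma, and NLP2 alone had an unadjusted p under 0.05 (log2 fold change -0.33 ± 0.13, edgeR adjusted p = 0.102). Over all genes, DESeq2 called 1596 of 23826 and limma on log2(FPKM + 1) 1910 of 18565.

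Among the nitrate-induced repressors 0 of 6 tested genes were called by edgeR, DESeq2 or limma, against 13.6% called by edgeR over all genes tested (median log2 fold change 0.05 against 0.00). At an unadjusted p under 0.05, 1 was higher and 2 were lower, while of all 18828 genes tested 2429 were higher and 2520 lower. The higher gene was LBD38, with a log2 fold change of 0.35 ± 0.16 (edgeR adjusted p = 0.156). The lower genes were HHO2, a repressor of NRT2 genes, with a log2 fold change of -0.53 ± 0.19 (edgeR adjusted p = 0.0706), and LBD39, with -0.96 ± 0.36 (edgeR adjusted p = 0.0784). Without agc1-4 replicate 1, 1 gene of the list was called lower.

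**Figure D4:**
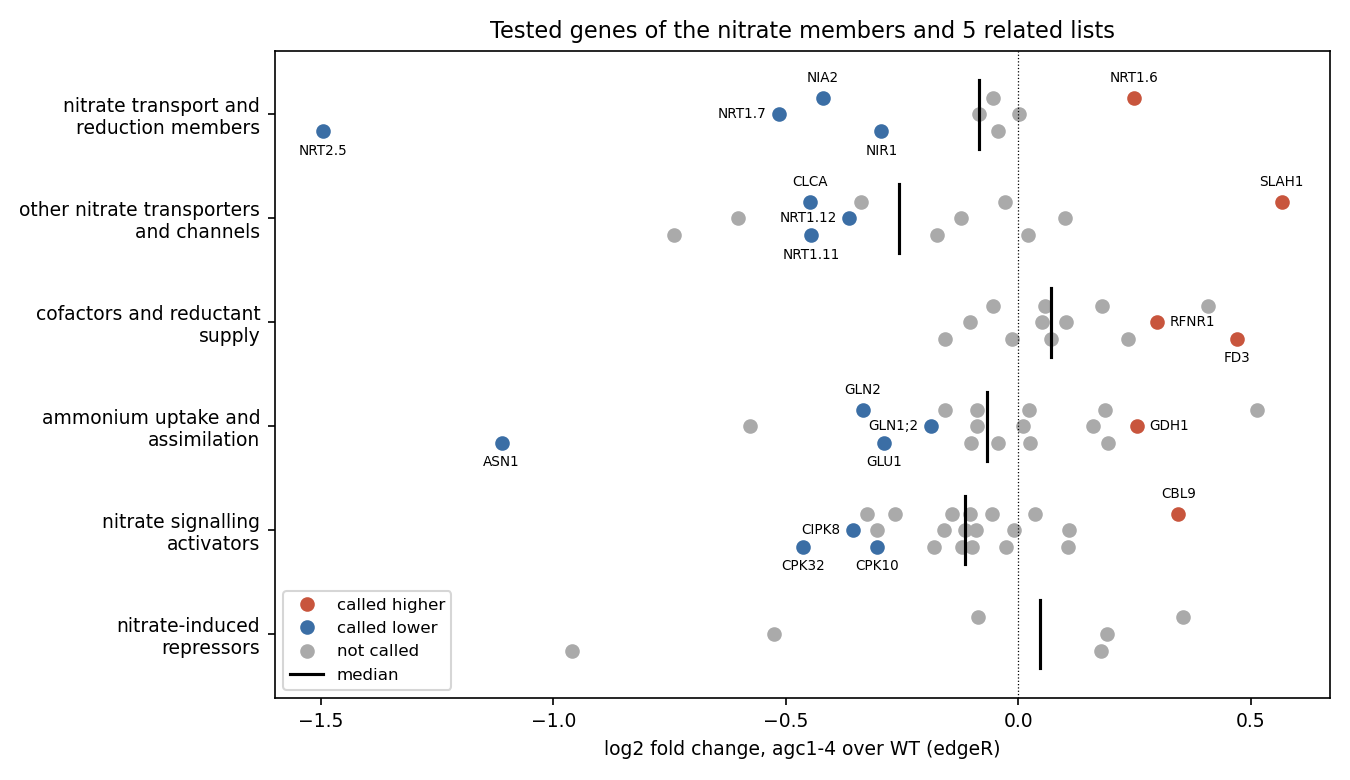
Log2 fold change, agc1-4 over WT (horizontal axis), of each tested gene among the nitrate transport and reduction members and 5 related lists, with called genes named and coloured and list medians as black lines. NRT2.5 and ASN1 lie farthest below 0, and the cofactor and reductant list holds 2 called genes, both higher.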

How the data were processed

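The authors deposited 1 table with 6 columns of estimated counts and 6 of FPKM, per the file headers; between 4.32% and 4.86% of counts per library were not whole. For the aligner, counting tool, genome build and strand, the deposited values carry no statement (not given in the sources used here). Counts were rounded and tested with edgeR 4.0.16 in R 4.3.3 (TMM, filterByExpr, robust quasi-likelihood F-test, no covariates), which left 18828 genes and removed 8951. SE is the log2 fold change divided by the root of F. Levels are means ± SD of deposited FPKM over 3 libraries. Members, related lists and markers were chosen with earlier results of these data known. Named were all members, AGC1-4, the markers, and up to 4 called genes per list by adjusted p (the 2 of lowest p where none was called); other named genes were chosen after their values were seen. NRT1.4, NPF5.5, NRT3.2, CNX6 and AGC1-4 were not matched by name in the table or RefSeq (TAIR10.1), which served only for names and neighbours. The fits were tried on simulated data, whose changes were all larger than those of NRT1.6, NRT1.7, NIA2 and NIR1. Recovery of changes that small was not tested. Alternatives were RLE, upper quartile and no scaling factors, no filter, DESeq2 1.42.0, limma 3.58.1 on log2(FPKM + 1) and log2(FPKM + 0.1) over genes that reached 1 FPKM in 3 or more libraries (the former also unfiltered), the replicate number as a block, and each library left out.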

Additional observations from a re-analysis of the deposited data

How the results depend on the processing

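NRT1.7, NRT2.5 and NIA2 kept their direction and their call in all 15 alternatives, NRT1.6 in 10 and NIR1 in 7. Of the 9 tested members 3 were called in DESeq2 and in unfiltered limma (0 higher and 3 lower in each), and 3 to 5 with 1 library left out. NRT2.7 and NIA1, which were not called, changed sign with 1 library left out (log2 fold changes from -0.0805 to 0.0223 and from -0.0695 to 0.0979). Over all genes 2564 of 18828 were called, against 1596 of 23826 in DESeq2 and 1578 of 23841 in unfiltered limma. With 1 library left out, 1688 of 18944 (without agc1-4 replicate 2) to 2816 of 19154 (without WT replicate 3) were called. DESeq2 and unfiltered limma also tested more genes of the ammonium, activator and repressor lists. Called genes among other transporters were 4 of 12 tested, against 2 of 18 in DESeq2 and unfiltered limma. They were 2 of 10 in each filtered limma fit, and 2 to 5 with 1 library left out. For cofactors and reductant supply they were 2, and 1 to 2 with 1 library left out. For ammonium assimilation they were 5, against 3 in each limma fit and 3 to 5 with 1 library left out. For signalling activators they were 4, against 1 in DESeq2, 2 in each limma fit and 2 to 4 with 1 library left out, and for repressors 0, and 0 to 1. With 1 library left out, the log2 difference of the NIA1 to NIA2 ratio (0.44) was 0.35 to 0.52, that of the nitrate to nitrite reductase ratio (0.00) was -0.0941 to 0.0420, and that of AGC1-4 was -1.21 to -0.637 FPKM. The causes were not tested. Same-numbered libraries did not deviate together (correlations of -0.0304, 0.00502 and 0.0338). The fit with the replicate number as a block called 2643 genes and the same count of members, 5. Permuting within replicate numbers cannot give a p below 0.25, which it gave for the NIA1 to NIA2 ratio. Scaling moved the median log2 fold change of all genes to at most 0.02. The low counts of NRT2.5 and NRT3.1 limit the precision of their folds.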

Other observations

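NRT1.6 and NRT1.7 belong to the NPF family, whose members carry nitrate, peptides, hormones or glucosinolates. The table held 51 genes of the family, named NPF in the table or in RefSeq or placed there from background knowledge, a set put together after the data were seen and given no test. Of the 36 with enough counts, 3 rose and 4 fell in agc1-4 by edgeR, against 7.07% lower and 6.55% higher over all genes tested, with a median log2 fold change of -0.09 against 0.00. NRT1.6, NRT1.7, NRT1.11 and NRT1.12, reported above, are among the called genes, so the set is not independent of them. Without the nitrate members 32 were tested, of which 2 rose and 3 fell. The called genes not reported above were NPF2.10 (GTR1), a glucosinolate transporter gene, which fell from 17.2 ± 1.02 to 13 ± 1.05 FPKM (edgeR adjusted p = 0.00171), the di- and tripeptide transporter gene NPF8.1, which rose from 28.8 ± 2.19 to 35.6 ± 1.54 FPKM (edgeR adjusted p = 0.00409), and NPF4.1, which rose from 51.8 ± 2.02 to 59.3 ± 3.34 FPKM (edgeR adjusted p = 0.0385).

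The nitrogen metabolism pathway of the authors' own KEGG annotation held 42 genes, of which 31 were tested, 3 rose and 9 fell, against 6.55% higher and 7.07% lower over all genes tested. The genes reported above, NRT2.5, NIA2 and NIR1 among them, are part of it, so it is not independent of them. Besides the genes above, those that fell were the carbonic anhydrase genes BCA1, BCA2 and BCA4 and AT4G37560, described as a formamidase family gene. BCA1 fell from 841 ± 22.0 to 672 ± 1.88 FPKM (edgeR adjusted p = 3e-06). The nitrilase genes NIT1 and NIT2 rose, NIT1 from 368 ± 8.91 to 449 ± 13.5 FPKM (edgeR adjusted p = 3.6e-05) and NIT2 from 31.7 ± 0.785 to 42.5 ± 1.53 FPKM (edgeR adjusted p = 0.000112). The nitrilase gene NIT3 was not called (log2 fold change -0.18 ± 0.19, edgeR adjusted p = 0.589). NIT1 and NIT2 are close copies, and how their shared reads were counted is not known.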
